A study of Homo sapiens with 6 samples.

Results

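LCP1, TWF1 and 8 further genes of actin filament control were followed through knockdown of ALYREF in 786-O cells, a human line of clear cell renal cell carcinoma. The 10 genes are LCP1, PLS3, TWF1, TWF2, CFL1, PFN1, CAPZA1, CAPZB, ACTN1 and ACTB, picked by gene symbol, and all 10 were among the 11679 genes of the authors' deposited tables. The set was put together with the fold changes of LCP1 and TWF1 known, so every fold change of these genes is given as a description and supports no claim. There were 3 groups of 2 libraries of polyadenylated RNA: cells given ALYREF siRNA5, cells given ALYREF siRNA8 (both FlexiTube siRNAs), and cells given the non-targeting AllStars control, all with DharmaFECT 1. ALYREF is an adaptor that binds messenger RNA for export from the nucleus. All were one established cell line after a transient transfection, in RPMI medium with 10% FBS, with a split at 24 h and harvest at 48 h after transfection. Both knockdown groups were compared with the same 2 control libraries, and a single non-targeting siRNA served as control. The deposited values are 1 mean per gene and 1 fold change per siRNA, so no value per library can be shown. ALYREF, the target, fell by 4.14 (SE 0.096) under siRNA5 and fell by 3.67 (SE 0.085) under siRNA8 on the log2 scale in the authors' deposited tables.

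Actin cycles between monomers and filaments. Profilin (PFN1) and the twinfilins (TWF1, TWF2) bind monomers, cofilin (CFL1) severs and disassembles filaments, and the heterodimer of CAPZA1 and CAPZB caps the growing filament end. Twinfilin also acts at capped ends, where it binds capping protein. The plastins (LCP1, or L-plastin, and PLS3, or T-plastin) and alpha-actinin (ACTN1) hold filaments together in bundles. LCP1 is best known from leukocytes and is also expressed in many carcinoma lines, whereas PLS3 is the plastin of most solid tissues.

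Sequence is shown for TWF1 alone, because it alone of the 10 genes has, in its 3' UTR (the untranslated end of the messenger RNA), the heptamer CTAGAAA, whose holders across the transcriptome tended to be low in the siRNA8 cells. TWF1 lies on the minus strand at chr12:43793723-43806375 (GRCh38, GENCODE release 29), with 9 exons and a 3' UTR of 1862 bases in the transcript used. The capitals mark that heptamer, and each stretch of 29 bases is part of the TWF1 3' UTR, read 5' to 3' on the transcript strand.
TWF1 site at 3' UTR bases 193 to 199, chr12:43795375-43795403: ttgagttaaagCTAGAAAagggttcaaca
TWF1 site at 3' UTR bases 296 to 302, chr12:43795272-43795300: ttgggccagttCTAGAAAgtctgatgtct

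Among the bundling genes, LCP1 moved in opposite directions with the 2 siRNAs. In bulk RNA, fewer cells of a kind and less RNA per cell cannot be told apart. Fold changes are log2 values over the control, each with a standard error (SE), and "called" means an adjusted p under 0.05 in the authors' DESeq2 fit. LCP1 fell by 0.95 (SE 0.058) under siRNA5 and rose by 1.17 (SE 0.053) under siRNA8 in the authors' deposited tables. Levels per group were rebuilt from the authors' mean and both fold changes, with 95% intervals from the authors' standard errors. On that scale LCP1 stood at 1221 normalized counts (1151 to 1296) under siRNA5, at 5304 (5054 to 5567) under siRNA8 and at 2358 (2237 to 2486) in the control. The 3 intervals did not overlap, siRNA8 being the highest group and siRNA5 the lowest. Between the siRNAs, LCP1 was 4.34-fold lower under siRNA5, a log2 difference of -2.12 (SE at most 0.079, interval -2.27 to -1.96). That difference was the 33rd lowest of the 11679 genes. LCP1 lies on the minus strand at chr13:46125926-46182324 (GRCh38), and no stretch of read length (42 bases) in its transcript recurred in another annotated gene.

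PLS3, the plastin with the highest level per length here, fell by 0.53 (SE 0.047) under siRNA5 in the authors' deposited table. With siRNA8 its log2 change was 0.09 (SE 0.045, interval 0.0047 to 0.18), which was not called in the authors' deposited table. Its rebuilt levels were 3767 normalized counts (3599 to 3943) under siRNA5, 5822 (5574 to 6081) under siRNA8 and 5457 (5223 to 5701) in the control. The siRNA5 level lay apart from the other two, whose intervals overlapped. Between the siRNAs the log2 difference was -0.63 (SE at most 0.065), in the same direction as for LCP1 but smaller.

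ACTN1, the alpha-actinin of stress fibres and adhesions, rose with both siRNAs, by 0.15 (SE 0.041) under siRNA5 and by 0.51 (SE 0.040) under siRNA8 in the authors' deposited tables. Its rebuilt levels were 6345 normalized counts (6103 to 6597) under siRNA5, 8139 (7835 to 8455) under siRNA8 and 5702 (5482 to 5931) in the control. All 3 intervals were apart, and both knockdown groups were above the control. ACTN4, its close relative, fell by 0.29 (SE 0.040) under siRNA5, and its log2 change was -0.05 (SE 0.040) under siRNA8 in the authors' deposited tables.

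**Figure D1:**
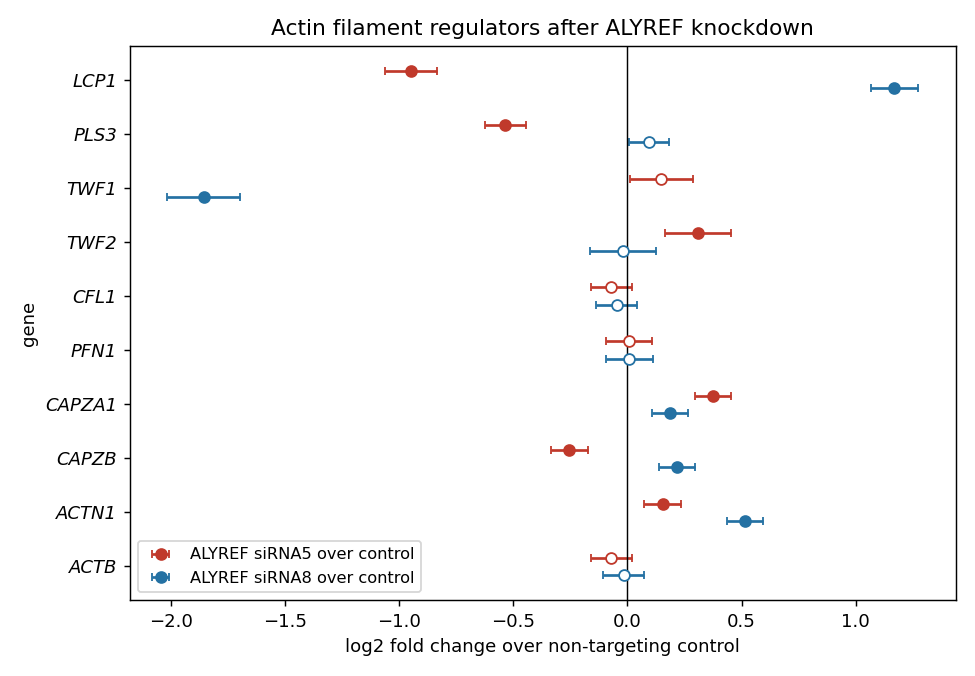
Log2 fold change over the non-targeting control (x axis) of each of the 10 genes (y axis) with ALYREF siRNA5 (red, upper point of each pair) and ALYREF siRNA8 (blue, lower point), with bars for 95% intervals from the authors' standard errors and open points for genes not called. LCP1 sits at -0.95 and 1.17, TWF1 at 0.15 and -1.86, and CFL1, PFN1 and ACTB near 0 with both siRNAs.

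Among the genes for monomer binding, TWF1 was lower under siRNA8 and close to the control under siRNA5. It fell by 1.86 (SE 0.081) under siRNA8, to 0.276 of the control (0.247 to 0.308), in the authors' deposited table. With siRNA5 its log2 change was 0.15 (SE 0.070, interval 0.011 to 0.29), which was not called in the authors' deposited table. Rebuilt levels were 2289 normalized counts (2138 to 2451) under siRNA5, 569.95 (524 to 620.4) under siRNA8 and 2065 (1927 to 2212) in the control. The siRNA8 group stood alone, and the intervals of siRNA5 and control overlapped. The fall was the 37th deepest of 11679 genes under siRNA8. Between the siRNAs TWF1 was 4.02-fold higher under siRNA5 (log2 difference 2.01, SE at most 0.11), the 26th highest of 11679.

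TWF2, the other twinfilin, was called higher under siRNA5 and was not called under siRNA8. Its log2 change under siRNA8 was -0.02 (SE 0.075, interval -0.17 to 0.13), and under siRNA5 it rose by 0.31 (SE 0.074) in the authors' deposited tables. Rebuilt levels were 1221 normalized counts (1139 to 1308) under siRNA5, 971 (903 to 1043) under siRNA8 and 984 (916 to 1057) in the control. Here siRNA5 was the high group, while siRNA8 and control overlapped. The TWF2 transcript has a 3' UTR of 424 bases and holds no copy of the heptamer shown for TWF1.

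PFN1, which feeds actin monomers to growing filaments, stood close to the control under both siRNAs. Its log2 changes were 0.0066 (SE 0.052) under siRNA5 and 0.0081 (SE 0.052) under siRNA8 in the authors' deposited tables. The intervals, -0.095 to 0.11 and -0.094 to 0.11, bound any change to about 1.08-fold in either direction. Rebuilt levels were 11036 normalized counts under siRNA5, 11047 under siRNA8 and 10985 in the control, so that the 3 intervals overlapped. PFN2, a second profilin, fell by 0.18 (SE 0.046) under siRNA5 and rose by 0.11 (SE 0.046) under siRNA8 in the authors' deposited tables.

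CFL1, the cofilin of non-muscle cells, was not called with either siRNA. Its log2 changes were -0.07 (SE 0.046, interval -0.16 to 0.019) under siRNA5 and -0.05 (SE 0.046, interval -0.14 to 0.043) under siRNA8 in the authors' deposited tables. Rebuilt levels were 13559 normalized counts under siRNA5, 13787 under siRNA8 and 14236 in the control, again with overlapping intervals. The related DSTN, destrin, fell by 0.16 (SE 0.050) under siRNA5 and rose by 0.14 (SE 0.049) under siRNA8 in the authors' deposited tables.

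The 2 subunits of capping protein, which work as a dimer, went different ways under siRNA5 and the same way under siRNA8. CAPZA1 rose by 0.38 (SE 0.040) under siRNA5 and by 0.18 (SE 0.041) under siRNA8 in the authors' deposited tables. CAPZB fell by 0.25 (SE 0.042) under siRNA5 and rose by 0.22 (SE 0.041) under siRNA8 in the authors' deposited tables. CAPZA1 was highest under siRNA5, at 5904 rebuilt normalized counts (5683 to 6133), followed by 5170.4 (4974 to 5374) under siRNA8 and 4549 (4373 to 4731) in the control. CAPZB was highest under siRNA8, at 4573 (4391 to 4763) under siRNA5, 6342 (6099 to 6595) under siRNA8 and 5455 (5243 to 5677) in the control. No 2 of the 3 intervals overlapped in either gene. CAPZA2, the second alpha subunit, rose by 0.24 (SE 0.053) under siRNA5 and by 0.29 (SE 0.052) under siRNA8 in the authors' deposited tables.

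ACTB, beta-actin, which is widely used as a reference transcript, was not called with either siRNA. Its log2 changes were -0.07 (SE 0.046, interval -0.16 to 0.018) under siRNA5 and -0.02 (SE 0.046, interval -0.11 to 0.073) under siRNA8 in the authors' deposited tables. Rebuilt levels were 46564 normalized counts (44566 to 48652) under siRNA5, 48384 (46308 to 50552) under siRNA8 and 48934 (46835 to 51127) in the control. ACTG1, gamma-actin, fell by 0.18 (SE 0.045) under siRNA5 and by 0.16 (SE 0.045) under siRNA8 in the authors' deposited tables. ACTA2, the smooth muscle actin, had a low mean of 47.1 normalized counts, fell by 1.79 (SE 0.49) under siRNA5 and rose by 1.25 (SE 0.32) under siRNA8 in the authors' deposited tables. ACTBL2 had a mean of 19.5, with log2 changes of -1.08 (SE 0.49) and -0.61 (SE 0.46) that were not called in the authors' deposited tables.

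**Figure D2:**
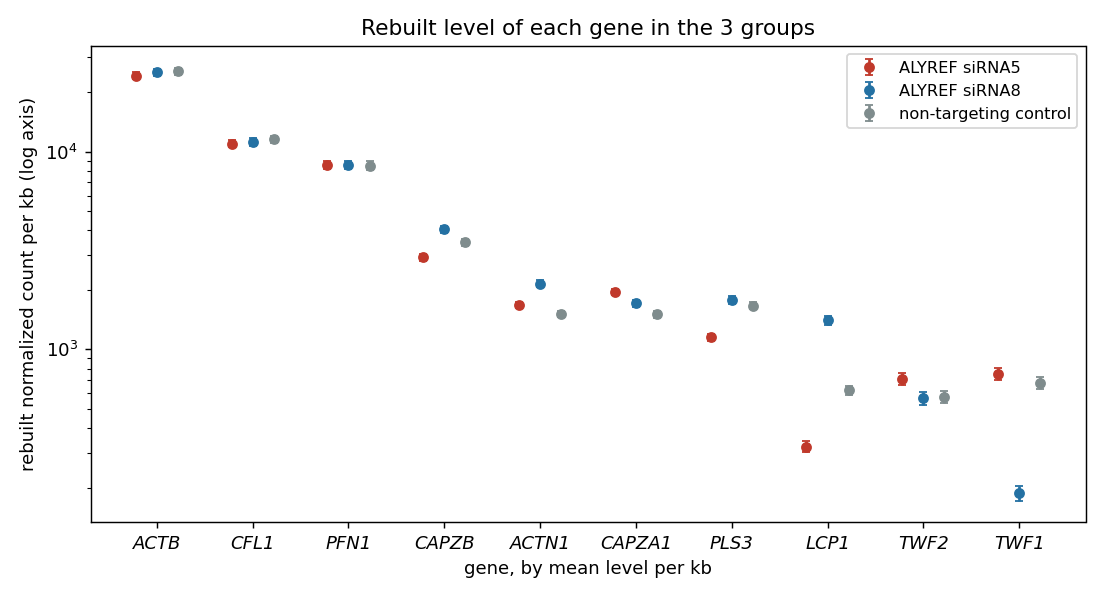
Rebuilt normalized count per kilobase of transcript (y axis, log scale) of the 10 genes, ordered by mean level, with ALYREF siRNA5 (red), ALYREF siRNA8 (blue) and the non-targeting control (grey), with bars for 95% intervals from the authors' standard errors. LCP1 spans 323 to 1401 and TWF1 187 to 752 per kilobase, while ACTB, CFL1 and PFN1 lie almost level.

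Counts were also set per kilobase of 1 annotated transcript per gene, so that levels could be ordered. ACTB led with a mean of 24967 normalized counts per kilobase, ahead of CFL1 with 11232.5, PFN1 with 8538 and CAPZB with 3480.2. ACTN1 (1781), CAPZA1 (1724) and PLS3 (1529) followed, and LCP1 (782), TWF2 (616) and TWF1 (539) were lowest. In the control, ACTN1 (1451 to 1569 per kilobase) and CAPZA1 (1448 to 1567) overlapped, as did LCP1 (591 to 657) and its neighbours TWF1 (633 to 727) and TWF2 (533 to 615). With siRNA8 the order at the low end was LCP1 with 1401 per kilobase, TWF2 with 565 and TWF1 with 187, all with intervals apart. With siRNA5 it was TWF1 with 752 and TWF2 with 710.4, which overlapped, and then LCP1 with 323.

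Summed levels rebuilt from the authors' deposited tables were also set side by side within families, which differed in how far the sum and the make-up shifted. LCP1 made up 19.6% of the summed plastin level per kilobase under siRNA5, 42.0% under siRNA8 and 25.6% in the control. PLS3 made up 69.7%, 53.3% and 68.3% in the same groups. PLS1, the plastin of intestinal microvilli, held 10.8%, 4.72% and 6.18%. The plastin sum was 0.676 of the control under siRNA5 and 1.37 times the control under siRNA8. TWF1 made up 51.4% of the twinfilin level under siRNA5, 24.9% under siRNA8 and 54.2% in the control. The twinfilin sum was 1.17 times the control under siRNA5 and 0.601 of it under siRNA8. In the alpha-actinin pair, ACTN1 had the larger share under siRNA5 (50.8%) and under siRNA8 (52.9%), and the smaller one in the control (43.2%). ACTB held 50.2%, 50.8% and 48.2% of the cytoplasmic actin level under siRNA5, under siRNA8 and in the control. The sum of both cytoplasmic actins was 0.915 of the control under siRNA5 and 0.939 of it under siRNA8. PFN1 made up 83.3%, 80.3% and 81.4% of the profilin level in the same groups. CFL1 made up 92.7%, 91.3% and 92.2% of the cofilin and destrin level. Under siRNA5 and siRNA8 the profilin sum was 0.982 and 1.02 of the control. The cofilin and destrin sum was 0.948 and 0.978 of it, and that of the capping protein alpha subunits 1.27 and 1.16. These shares rest on 1 transcript length per gene and carry no test.

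**Figure D3:**
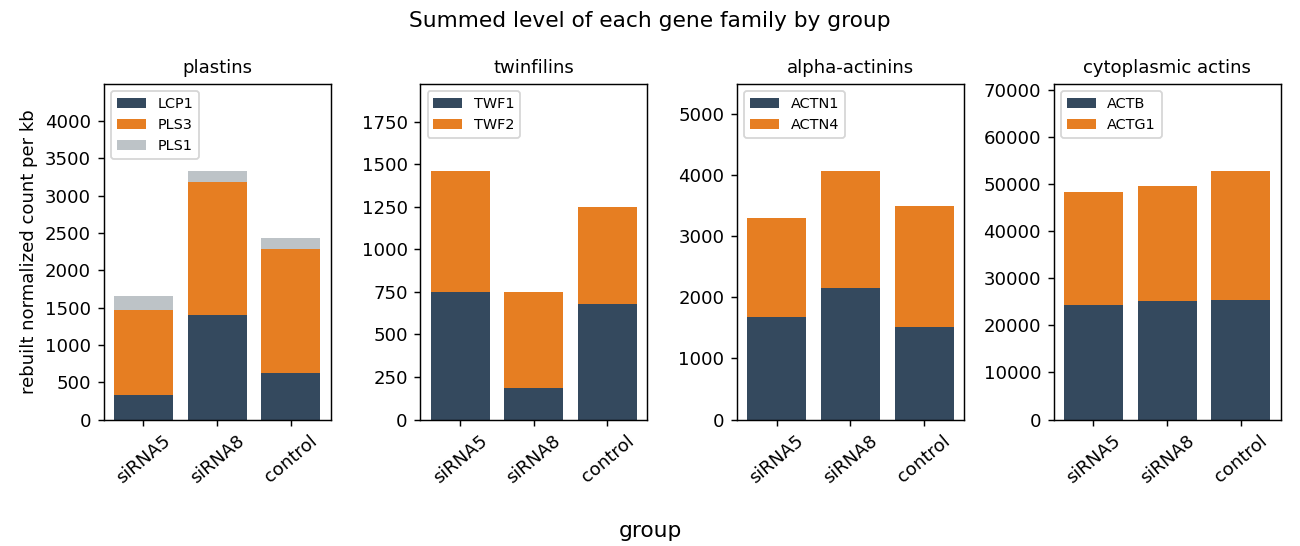
Summed rebuilt normalized count per kilobase (y axis, from 0, with a scale of its own in each panel) of 4 gene families with ALYREF siRNA5, ALYREF siRNA8 and the non-targeting control (x axis), each bar split by gene. The plastin sum is 1648, 3333 and 2437 per kilobase and the twinfilin sum 1462, 752 and 1251, while the actin sum is 0.915 and 0.939 of the control under siRNA5 and siRNA8.

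Of the 10 genes, 3 were called higher, 3 lower and 4 neither under siRNA5, where 46.4% of all genes were called, 24.4% higher and 22% lower, in the authors' deposited table. With siRNA8, 4 were called higher, 1 lower and 5 neither, where 41.5% of all genes were called, 21% higher and 20.5% lower, in the authors' deposited table. Since the genes were chosen with these comparisons in view, nothing is read from the counts. The median log2 change of the 10 genes was -0.03 under siRNA5 and 0.05 under siRNA8, beside 0.0097 and 0.0063 over all genes. Without sign, the medians of the 10 genes were 0.20 and 0.14, beside 0.25 and 0.23 over all genes. Between the siRNAs, 3 of the 10 genes were called higher under siRNA5, 4 lower and 3 not called, where 32% of all genes were called, 17.2% higher and 14.8% lower.

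The genes nearest to LCP1 and to TWF1 in the plane of both log2 fold changes were sought among 5839 other genes with a mean at or above the median of all genes. For LCP1 they were GLIPR1 at a distance of 0.39, FOXD1, a forkhead transcription factor, at 0.44 and TMEM164 at 0.46. GLIPR1 fell by 0.85 (SE 0.067) under siRNA5 and rose by 0.80 (SE 0.061) under siRNA8 in the authors' deposited tables, so that even the nearest gene spanned less than LCP1. For TWF1 they were FSTL1, a secreted glycoprotein, at 0.27, ARL6IP6 at 0.35 and COMMD2 at 0.36. FSTL1 rose by 0.23 (SE 0.067) under siRNA5 and fell by 1.59 (SE 0.068) under siRNA8 in the authors' deposited tables. The distance runs over 2 comparisons that share their controls.

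**Figure D4:**
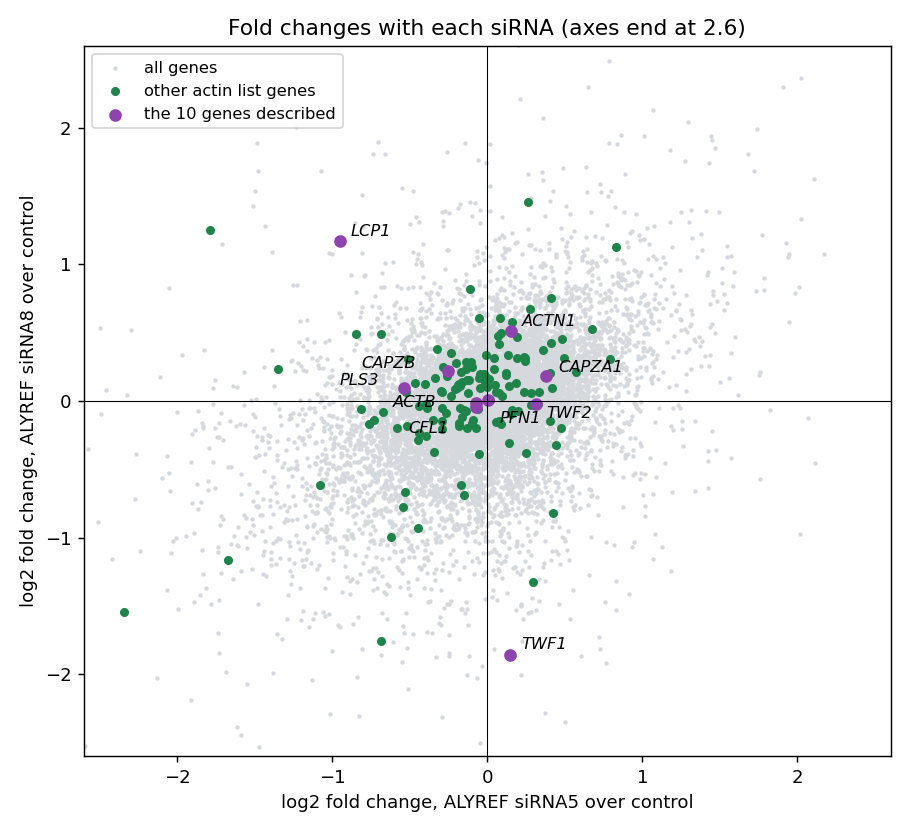
Log2 fold change with ALYREF siRNA5 (x axis) against that with ALYREF siRNA8 (y axis) for all genes (grey), other genes of the actin lists (green) and the 10 genes described (purple, named), with axes cut at 2.6 either way. LCP1 lies in the upper left at -0.95 and 1.17, TWF1 low at 0.15 and -1.86, and ACTB, CFL1 and PFN1 next to the origin of axes that share the control libraries.

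The heptamer CTAGAAA in the TWF1 3' UTR ranked first of 16384 heptamers for lower log2 fold changes under siRNA8, in 9118 genes whose mean was 100 or more, after allowance for 3' UTR length. The overlapping ACTAGAA ranked second. This search was made after the values were seen and is a description. Genes with 2 or more copies had a median log2 change of -0.15 under siRNA8 (322 genes), those with 1 copy -0.07 (1067 genes) and those with none 0.03 (7729 genes). With siRNA5 the medians of the same groups were 0.12, 0.06 and 0.02, the opposite order. With siRNA8, 41.0%, 34.0% and 20.1% of these groups were called lower. The groups differ in 3' UTR length, with medians of 4886, 2757 and 970 bases. TWF1, with 2 copies, lay far below the median of its group.

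Copies of the heptamer were counted in the 10 genes and in other genes named here. LCP1, PLS3, TWF2, CFL1, PFN1, CAPZA1, CAPZB, ACTN1 and ACTB hold none, nor does FSTL1, the gene nearest to TWF1, while ARL6IP6 holds 1 and COMMD2 holds 2. CAPZA2, DSTN and CORO1C hold 1 copy each and rose under siRNA8, while MYLK and GMFB hold 1 copy each and fell. SSH1, a cofilin phosphatase, holds 3 copies and rose by 0.61 (SE 0.091) under siRNA8 in the authors' deposited table. CALD1, the actin-binding caldesmon, and ANLN, the cytokinesis protein anillin, hold 2 copies each and fell by 1.00 (SE 0.057) and 0.32 (SE 0.045) under siRNA8 in the authors' deposited table. Of 27 other genes of the actin lists with the heptamer, 10 rose and 6 fell under siRNA8 (median 0.07). Of 109 without it, 40 rose and 22 fell (median 0.09), beside 21% higher and 20.5% lower over all genes. The shares lower were near that of all genes in both groups. For lower levels under siRNA5, CAGCCCC ranked first and was not looked for in the 10 genes. AACGCTG ranked second, or 19 among genes with a mean of 500 or more, and none of the 10 genes holds it. The part of any of these heptamers in the fold changes was not tested.

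**Figure D5:**
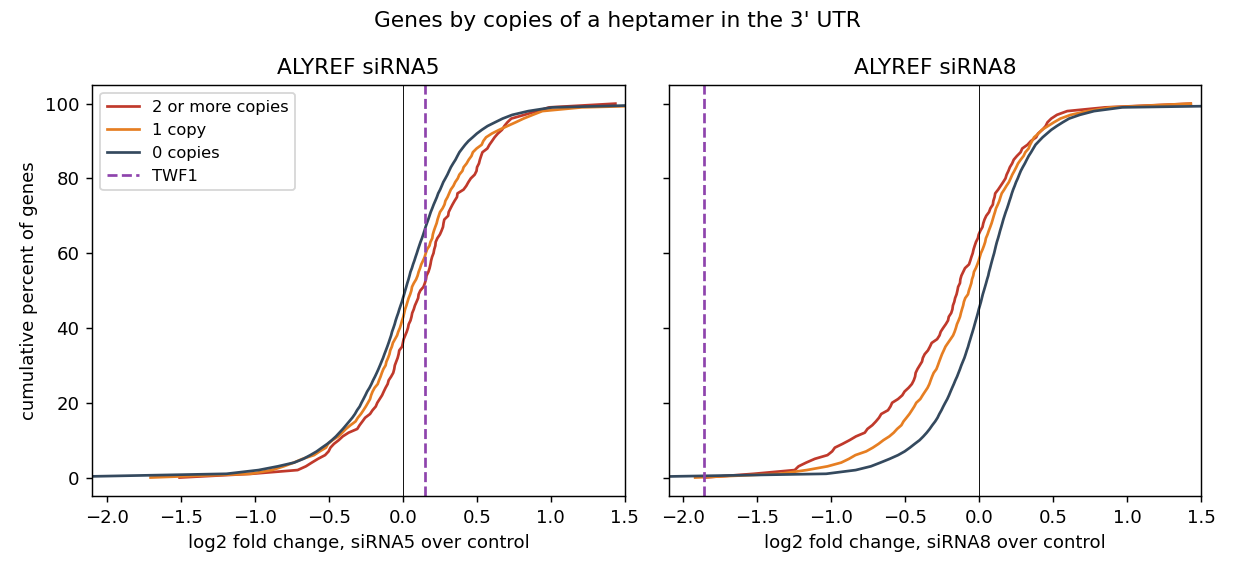
Cumulative percent of genes (y axis) by log2 fold change (x axis) with ALYREF siRNA5 (left) and ALYREF siRNA8 (right), for genes with 2 or more copies (red), 1 copy (orange) and 0 copies (dark) in the 3' UTR of the heptamer that TWF1 holds, and for TWF1 itself (dashed line, at 0.15 under siRNA5 and -1.86 under siRNA8). With siRNA8 the curve for 2 or more copies lies left of that for 0 copies, with medians of -0.15 and 0.03, and under siRNA5 it lies right of it.

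The wider actin machinery was described by 9 lists with 138 measured genes beside the 10, some of them in more than 1 list. The lists also hold genes outside that machinery, among them VIM, of intermediate filaments, and SRF targets such as CYR61 and ANKRD1. With siRNA5, 27 rose, 53 fell and 58 did neither, and under siRNA8, 50 rose, 28 fell and 60 did neither by the authors' deposited adjusted p-values. Over all genes, 24.4% were higher and 22% lower under siRNA5, and 21% were higher and 20.5% lower under siRNA8. No list was tested against these shares. The median log2 change was -0.08 under siRNA5 and 0.08 under siRNA8. Between the siRNAs 15 of the 138 were higher under siRNA5 and 56 lower (median difference -0.15, beside 0.00053 over all genes). In that comparison 17.2% of all genes were higher and 14.8% lower. Of the 10 genes, LCP1, PLS3, CAPZB and ACTN1 were called lower under siRNA5 than under siRNA8, and TWF1, TWF2 and CAPZA1 higher.

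Bundling and crosslinking genes, the group closest to LCP1 in role, had more called falls than rises under siRNA5. Of 20 measured, 5 rose and 11 fell under siRNA5 (median -0.25), where 24.4% of all genes were higher and 22% lower. Under siRNA8, 4 rose and 6 fell (median -0.06), where 21% of all genes were higher and 20.5% lower, so that the share of rises was near that of all genes with both siRNAs. FSCN1, the bundler fascin, fell by 0.73 (SE 0.048) under siRNA5 and by 0.14 (SE 0.046) under siRNA8 in the authors' deposited tables. LIMA1, which crosslinks and stabilises filaments, shared the opposite signs of LCP1, with a fall of 0.68 (SE 0.074) under siRNA5 and a rise of 0.49 (SE 0.070) under siRNA8 in the authors' deposited tables. SYNPO, synaptopodin, fell by 0.76 (SE 0.080) under siRNA5, and CNN3, a calponin, rose by 0.47 (SE 0.037) under siRNA8 in the authors' deposited tables. ANLN went the other way from LIMA1, with a rise of 0.44 (SE 0.044) under siRNA5 in the authors' deposited table.

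Of 17 measured genes in the list of links from filaments to focal adhesions, 4 rose and 9 fell under siRNA5 (median -0.14). There 24.4% of all genes were higher and 22% lower. Under siRNA8, 10 rose and 3 fell (median 0.19), where 21% of all genes were higher and 20.5% lower. TLN1, talin, which couples integrins to actin, fell by 0.84 (SE 0.055) under siRNA5 and rose by 0.49 (SE 0.053) under siRNA8 in the authors' deposited tables. FERMT2, the integrin activator kindlin-2, rose with both, by 0.41 (SE 0.079) under siRNA5 and by 0.76 (SE 0.077) under siRNA8 in the authors' deposited tables.

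SRF, the serum response factor that activates many actin genes when monomers are scarce, fell by 0.32 (SE 0.072) under siRNA5 and rose by 0.38 (SE 0.068) under siRNA8 in the authors' deposited tables. Among the 17 genes measured of SRF, its MRTF cofactors and their targets, 0 rose and 10 fell under siRNA5 (median -0.20), or 2 higher and 10 lower by DESeq2's unadjusted p under 0.05, and 7 rose and 2 fell under siRNA8 (median 0.24). Over all genes, 24.4% were higher and 22% lower under siRNA5, and 21% were higher and 20.5% lower under siRNA8. Several of the genes that fell under siRNA5, TPM1 and ACTA2 among them, are also counted in other lists here. Some had low means, such as ACTA2 with 47.1 normalized counts. The cofactor gene MKL1 (MRTFA) had log2 changes of -0.01 (SE 0.086) under siRNA5 and 0.14 (SE 0.084) under siRNA8, neither called in the authors' deposited tables. MKL2 (MRTFB) fell by 0.35 (SE 0.093) under siRNA5, and its log2 change under siRNA8 was -0.14 (SE 0.091) in the authors' deposited tables. FHL2, a LIM-domain target, fell by 0.53 (SE 0.049) under siRNA5, and ANKRD1 rose by 0.58 (SE 0.072) under siRNA8 in the authors' deposited tables. CYR61 (CCN1) fell with both, by 0.52 (SE 0.042) under siRNA5 and by 0.18 (SE 0.041) under siRNA8 in the authors' deposited tables. The SRF binding motif known as the CArG box was sought in RefSeq promoters (GRCh38.p14, from 250 bases before to 50 after the start; the motif reads the same on both strands). It was in 1.29% of all 35116 promoters and in 7.27% of 220 promoters of the other actin genes, a set that includes the list of SRF targets and so was in part chosen for SRF regulation. Among the 10 genes, 1 of the 4 ACTN1 promoters held it and none of LCP1, PLS3, TWF1, TWF2, CFL1, PFN1, CAPZA1 or CAPZB did, while ACTB was not analysed here.

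Monomer and turnover genes, the roles of TWF1, CFL1 and PFN1, gave 2 rises and 7 falls of 20 under siRNA5 (median -0.06), and 6 rises and 2 falls under siRNA8 (median 0.12). The called share, 45% under siRNA5 and 40% under siRNA8, was near the 46.4% and 41.5% of all genes. LIMK1, the kinase that inactivates cofilin, fell by 0.40 (SE 0.063) under siRNA5 in the authors' deposited table. CAP2, a cyclase-associated protein, fell by 0.29 (SE 0.088) under siRNA5 in the authors' deposited table. GMFB, which removes filament branches, fell by 0.31 (SE 0.078) under siRNA8, and CORO1C, a coronin, rose by 0.25 (SE 0.039) under siRNA8 in the authors' deposited table. Capping and severing genes gave 4 rises and 3 falls of 14 under siRNA5 (median -0.0062), and 5 rises and 5 falls under siRNA8 (median -0.0062). Their called share was 50% under siRNA5, near the 46.4% of all genes, and 71.4% under siRNA8, beside 41.5% of all genes. ADD3, an adducin that caps filament ends, rose by 0.42 (SE 0.075) under siRNA5 and fell by 0.82 (SE 0.080) under siRNA8 in the authors' deposited tables. SVIL, supervillin, rose by 0.48 (SE 0.067) under siRNA5 and by 0.46 (SE 0.067) under siRNA8 in the authors' deposited tables.

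Of the 22 genes of the Arp2/3 complex, which starts branched filaments, and of its activators, 5 rose and 6 fell under siRNA5 (median -0.05), and 10 rose and 3 fell under siRNA8 (median 0.09). The called share was 50% under siRNA5, near the 46.4% of all genes, and 59.1% under siRNA8, beside 41.5% of all genes. CTTN, cortactin, rose by 0.36 (SE 0.054) under siRNA5 and by 0.37 (SE 0.053) under siRNA8 in the authors' deposited tables, and BRK1, a WAVE complex subunit, fell by 0.44 (SE 0.062) under siRNA5 and by 0.24 (SE 0.060) under siRNA8 in the authors' deposited tables. WASF1, a WAVE subunit, rose by 0.67 (SE 0.10) under siRNA5 and by 0.53 (SE 0.10) under siRNA8 in the authors' deposited tables, whereas WASF2, of the same family, fell by 0.47 (SE 0.057) under siRNA5 and rose by 0.13 (SE 0.055) under siRNA8 in the authors' deposited tables. Of 16 formins and Ena/VASP factors, 3 rose and 3 fell under siRNA5 (median 0.03), and 6 rose and 4 fell under siRNA8 (median 0.14). Here 37.5% were called under siRNA5 and 62.5% under siRNA8, beside 46.4% and 41.5% of all genes. VASP, which speeds filament growth, fell by 0.51 (SE 0.064) under siRNA5 and rose by 0.31 (SE 0.061) under siRNA8 in the authors' deposited tables. FMNL2, a formin of cell edges, rose by 0.27 (SE 0.077) under siRNA5 and by 0.67 (SE 0.075) under siRNA8 in the authors' deposited tables. Of 14 tropomyosin and myosin II genes, 4 rose and 7 fell under siRNA5 (median -0.04), and 4 rose and 2 fell under siRNA8 (median 0.08). The called share was 78.6% under siRNA5, beside 46.4% of all genes, and 42.9% under siRNA8, near the 41.5% of all genes. TPM4, a tropomyosin, fell by 0.81 (SE 0.043) under siRNA5, and its log2 change was -0.06 (SE 0.043) under siRNA8 in the authors' deposited tables. TPM1 fell by 0.29 (SE 0.037) under siRNA5 and rose by 0.25 (SE 0.036) under siRNA8 in the authors' deposited tables. MYLK, myosin light chain kinase, fell by 0.54 (SE 0.077) under siRNA5 and by 0.78 (SE 0.078) under siRNA8 in the authors' deposited tables.

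Since LCP1 is named for leukocytes, markers of leukocytes were looked up. Rows were found for 4 of 12 (CORO1A, LAPTM5, CD68 and ITGB2), with a summed rebuilt level of 222 normalized counts under siRNA5, 283 under siRNA8 and 292 in the control, sums that carry no interval. CD68, with a mean of 202 normalized counts, made up most of the sum. ITGB2 was called lower under siRNA5, and none of the 4 was called under siRNA8, where the log2 changes were 0.15 (SE 0.56) for CORO1A, 0.07 (SE 0.55) for LAPTM5, 0.04 (SE 0.15) for CD68 and -0.69 (SE 0.33) for ITGB2 in the authors' deposited table. The other 8, the pan-leukocyte antigen PTPRC among them, were not analysed here. The part of such cells in the LCP1 values was not tested. CORO1A is also in the turnover list. Of 9 renal markers, 8 had rows, PAX8 and EPAS1 among them, and CA9 was not analysed here. Their summed level was 65837 under siRNA5, 73296 under siRNA8 and 74329 in the control. VIM, with a mean of 53093.5 normalized counts, made up most of that sum, which says little of the other 7. Of the 8, 3 were called higher and 3 lower under siRNA5, beside 24.4% and 22% of all genes. Under siRNA8, 5 were called higher and 1 lower, beside 21% and 20.5% of all genes.

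The transcripts differ in how much of their sequence recurs in other annotated genes. Stretches were matched on either strand, while the libraries were directional with paired ends, so the shares may overstate reads that could not be assigned. None of the stretches of 42 bases in LCP1, PLS3 and CAPZB recurred in another annotated gene, whereas 25.8% did in TWF1 (almost all in its pseudogene TWF1P1), 25.2% in TWF2, 29.3% in CAPZA1, 15.7% in PFN1, 15.2% in ACTB (over 24 other genes), 9.81% in CFL1 and 1.36% in ACTN1. The sources used here do not say how shared reads were counted, so values of these genes carry that uncertainty.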

How the data were processed

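Polyadenylated RNA of 6 libraries was sequenced as paired ends of 42 nt from directional libraries, per the labels' protocols. Per the submitters' processing notes, STAR, Picard, HTSeq and DESeq2 were used with build hg19, without versions or settings. The authors deposited 1 DESeq2 table per siRNA: the signal column is the mean of normalized counts, the same in both tables, and fold changes and standard errors are log2 values, per the file headers. The Wald score is their ratio per the file headers. The authors' deposited p-values are adjusted by Benjamini-Hochberg over all rows, which was recomputed. The 2 HTSeq counters (6.23% without feature, 1.62% ambiguous) were left out. Tables were matched to siRNAs by the number in their names and the library titles. The headers do not state the direction of the fold change, and it was taken as siRNA over control, since ALYREF is negative in both tables. Depth per library is unknown: gene means sum to 12632500 normalized counts, with a median of 459 and a lowest value of 11.6.

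The authors' fit is the test, with a threshold of 0.05. Group levels were rebuilt from the mean over 3 equal groups and both fold changes. The variance rebuilt from either table differed by a median of 1.63% and by at most 5.89% for the 10 genes. Nothing states that the 2 libraries of a group came from separate cultures, so p-values reflect no more than how these libraries vary, and that variation may be technical. To set one siRNA against the other, fold changes were subtracted and divided by the root of summed squared standard errors (normal, two-sided, adjusted over all genes), whose error is an upper bound because the controls are shared. These steps were run on simulated data built with the same formulas, so the recovery of group levels there was fixed in advance. The sources used here do not state whether the deposited fold changes were shrunken by the fit. The rebuilt levels take them as not shrunken. Lengths, 3' UTRs and shared stretches came from 1 transcript per gene in GENCODE release 29 (GRCh38), matched by symbol for 10924 of 11679 genes. Python 3.11.15, numpy 2.4.6, scipy 1.17.1 and pandas 2.3.3, with matplotlib 3.10.9 for figures, were used.

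The 10 genes and all lists were chosen with earlier results of these data known. The text names the 10 genes, ALYREF, the actin genes, SRF and its cofactors, genes among up to 2 called rises and 2 called falls of largest size per list and siRNA at or above the median mean, and the 3 nearest genes to LCP1 and to TWF1. It further names paralogs of the 10 genes, chosen by family, and markers of leukocytes and renal cells. The 3' UTR heptamers were chosen after the values were seen.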

Additional observations from a re-analysis of the deposited data

How the results depend on the processing

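Each member was recomputed with a threshold of 0.01, with adjustment over genes whose mean was 100 or more and with fold changes centred on the median of all genes, and its difference between siRNAs also with the control variance taken out. Every call of the 10 genes held under all of these, and every direction except that of PFN1 under siRNA5, whose log2 change, not called, was 0.0066 and became -0.0031 when centred. Among the other genes of the actin lists, 71 were called between siRNAs, where 32% of all genes were called. With the control variance taken out, 92 of the list genes were called (23 higher, 69 lower with siRNA5). The share of all genes called in that setting was not worked out, so the 92 cannot be set against the 32%. The search for 3' UTR heptamers was varied after the data were seen: CTAGAAA ranked 1 with siRNA8 without allowance for length and with a minimum mean of 500, whereas AACGCTG with siRNA5 ranked 1 and 19 under these settings, and the cause was not tested. No paired analysis was possible because the tables hold no values per library. Leaving out each replicate was not run for the same reason. Depth per library is unknown, and genes with means under 50, such as ACTA2, have wide errors.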
